A study of Mus musculus with 6 samples.

Results

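The genes described here encode the factors that start and extend protein synthesis in the cytosol, together with the kinases that phosphorylate the initiation factor eIF2. They were taken from the count table by symbol, as every gene whose name begins with Eif followed by a digit from 1 to 6 or with Eef followed by 1 or 2. Pseudogene symbols ending in -ps (7 of them) were left out. This gave 68 of the 52459 gene symbols in the table. Of these, 65 passed the filter on low counts and were tested. The 3 that did not were Eif4e1b, Eif3j2 and Eif2c5. Eif2c is an older symbol of the Argonaute genes, so Eif2c5 matches the rule by name only. Eif1ad, a gene for a protein with an eIF1A-like domain, was kept as a separate role.

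RNA was sequenced from bone marrow derived macrophages of C57BL/6 mice grown with the myeloid growth factor GM-CSF. Control cultures received vehicle and treated cultures received piceatannol, a plant stilbene known as an inhibitor of the tyrosine kinase Syk, added on day 7 and left overnight, with 3 libraries in each group. Both groups share strain, GM-CSF and culture time, and the labels name no genetic change. The sources used here do not give the dose, the vehicle, the number of mice or whether libraries of a group come from separate cultures, so the spread between libraries may be technical.

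Protein synthesis begins when eIF2, carrying GTP and the initiator tRNA, joins the small ribosomal subunit with eIF1, eIF1A, eIF3 and eIF5. The cap-binding complex of eIF4E, the scaffold eIF4G and the helicase eIF4A brings the mRNA, and 4E-BP proteins block it by holding eIF4E. Stress kinases phosphorylate the alpha subunit of eIF2, which then inhibits its own exchange factor eIF2B and lowers initiation while mRNAs such as that of ATF4 are translated better. Elongation is carried by eEF1A, its exchange complex eEF1B, and eEF2. These data hold RNA levels only, and say nothing of phosphorylation or of protein synthesis.

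The libraries held 33276569 to 58697084 counts. CPM, the usual depth-scaled count, is used below for the level of a gene in a library, and FPKM, the authors' deposited value, where genes are compared with each other, since it is also divided by gene length. Any order of genes by FPKM depends on the lengths used. The share of mitochondrially encoded genes was 0.82% ± 0.0447 in the controls but 2.15% ± 0.431 after treatment (SD, n = 3). Bone marrow grown with GM-CSF is known to hold dendritic-like cells beside macrophages. Macrophage markers were present in both groups: the 8 listed genes, led by the lysozyme gene Lyz2, summed to 18595 to 22569 CPM in control libraries and 13197 to 14672 CPM with piceatannol, with 2 higher and 6 lower under piceatannol. Dendritic cell markers, led by H2-Ab1, summed to 6840.1 to 7720.2 CPM in control libraries and 1808 to 2106 CPM with piceatannol, and 5 of 6 fell. Stromal markers, led by the collagen gene Col1a2, summed to 1879 to 2108 CPM in control libraries and 453 to 493 CPM with piceatannol, and all 3 fell. Neutrophil markers summed to 104 to 216 CPM in control libraries and 21.7 to 31.8 CPM with piceatannol, and 4 of 4 tested fell. T cell markers summed to at most 1.57 CPM and B cell markers to at most 2.12 CPM in any library. The part of these marker shifts in the results below was not tested. In such bulk samples fewer cells of a type and less RNA per cell cannot be told apart.

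Most translation factor genes fell with piceatannol, by small amounts. Of 65 tested, 44 fell and 12 rose at an adjusted p under 0.05, and 9 did not pass (edgeR's quasi-likelihood test, Benjamini-Hochberg adjustment over all genes tested). The falls were 67.7% of the tested factors, while 38.3% of all 15380 tested genes fell. The rises were 18.5%, while 38.8% of all tested genes rose. Calls in either direction took 86.2% of the factors and 77% of all genes. The median log2 fold change over the tested factors was -0.31, and over all tested genes 0.011. The changes stayed small: 7 factors fell at least 2-fold, or 10.8%, while 16.6% of all tested genes fell that far. The CPM values of the groups did not overlap for 58 factors (89.2%), 45 lower and 13 higher with piceatannol, and for 79% of all tested genes. Together the 68 genes made up 1.45% ± 0.0419 of each control library and 1.09% ± 0.0234 of each treated library (SD, n = 3).

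**Figure D1:**
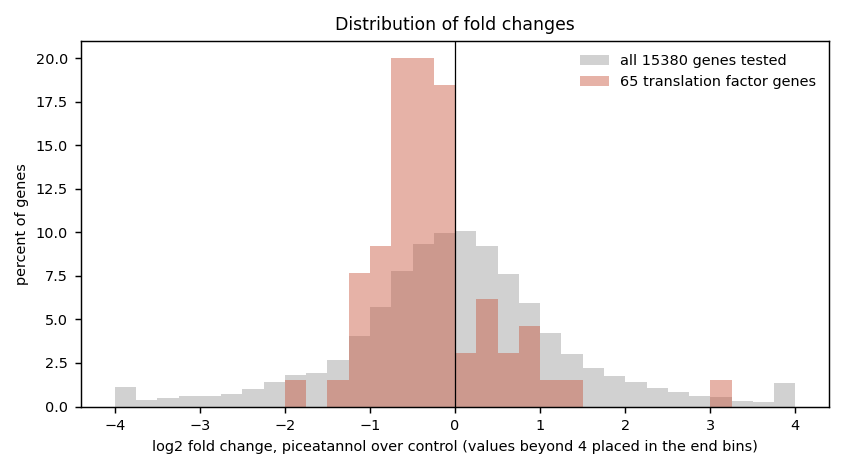
Percent of genes (vertical axis) by log2 fold change of piceatannol over control (horizontal axis, steps of 0.25) for all 15380 tested genes in grey and the 65 tested translation factor genes in red. The factors lie mostly just below 0, with a median of -0.31, while the grey values centre on 0.011.

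The 12 rises were those of Eif1, Eif1b, Eif2ak1, Eif2ak3, Eif2ak4, Eif2b4, Eif4e, Eif4ebp1, Eif5, Eif5b, Eif6 and Eef1a2. They came from several roles: start codon selection, the eIF2 kinases, cap binding and its inhibitor, subunit joining and elongation. By contrast all 13 tested eIF3 subunit genes fell, as did the 3 eIF4G genes and every tested gene of the eEF1B complex. Beside these counts and those given below, 38.3% of all tested genes fell and 38.8% rose. Values are given below by role. Reads that a gene shares with others limit some of them: among genes not remarked on below, 27.8% of the 50-base windows of Eif2s2, 24.4% of Eif4a3 and 22% of Eif3e occur in transcripts of other genes.

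**Figure D2:**
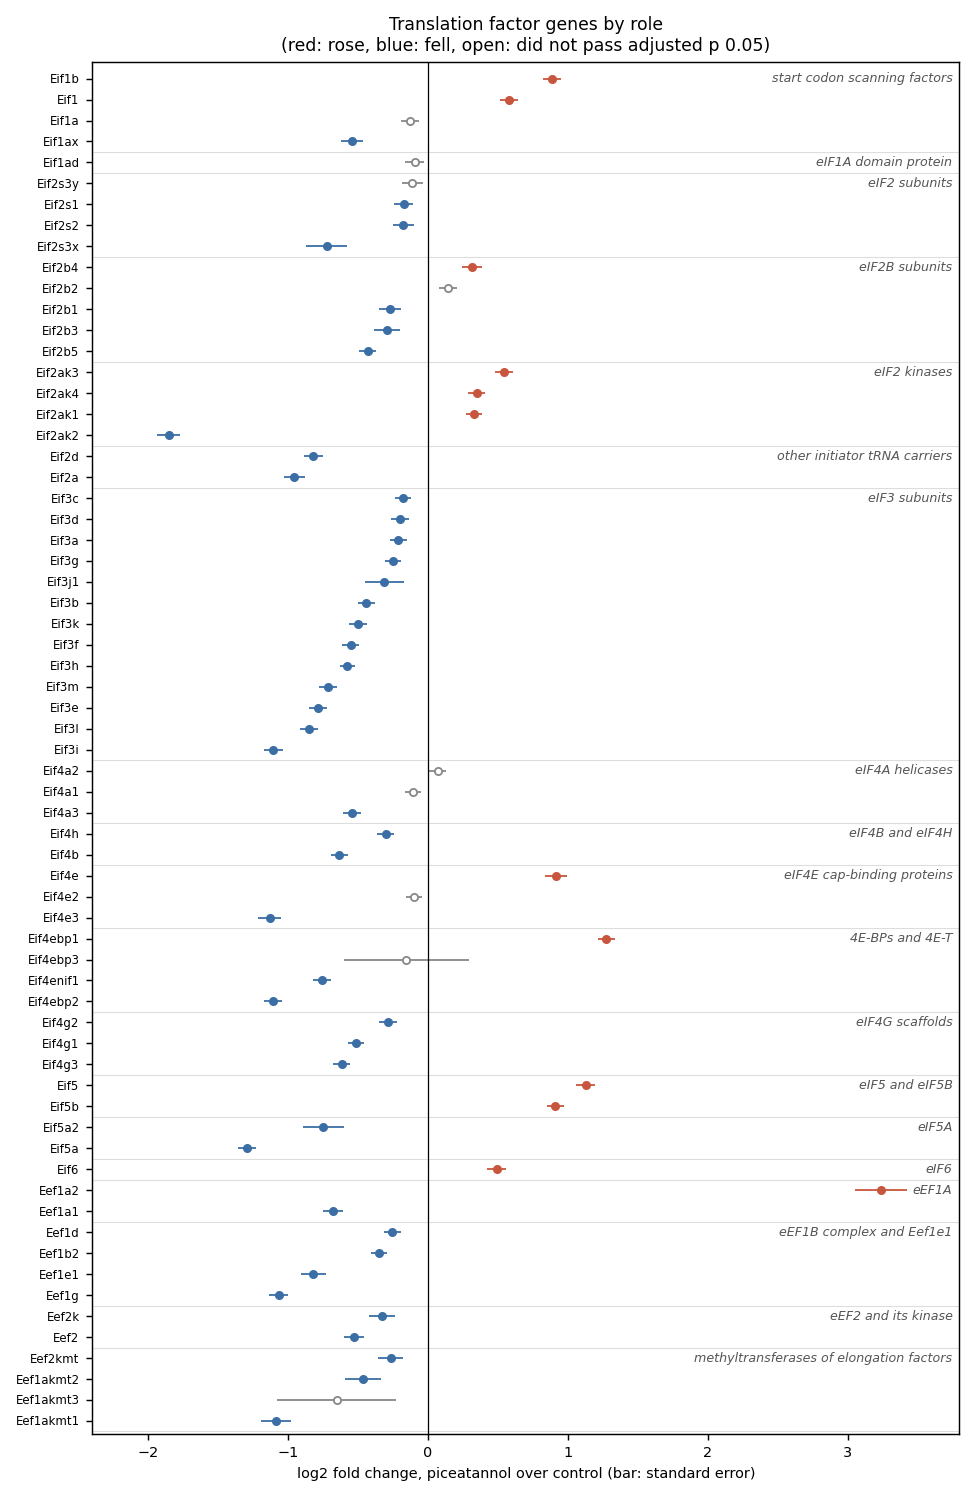
Log2 fold change of piceatannol over control (horizontal axis) for each tested translation factor gene (vertical axis), grouped by role, with the standard error as a bar, from 3 libraries per group. Red genes rose, blue genes fell and open grey genes did not pass. Eef1a2 lies farthest to the right at 3.24 and Eif2ak2 farthest to the left at -1.85.

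Promoter sequences from RefSeq (build GRCm38.p6, mostly upstream of each annotated start and reaching 50 bases past it) were found for 52 of the 68 genes, with 67 promoters in all. They were searched on both strands for the E-box CACGTG, which MYC, and factors such as TFEB and USF, are known to bind. It occurred in 14 of 67 factor promoters (20.9%) and in 7.15% of the 32851 promoters in the table. The 32851 promoters were not limited to genes tested here, while all but 1 of the 52 factor genes were tested, so the backgrounds are unlike. Promoters of the same gene can overlap and are not independent. Of the 12 genes with the motif, 9 fell, 2 rose and 1 did not pass. Of the 40 without it in these windows, 26 fell, 8 rose and 5 did not pass, with 1 not tested. The motif was thus found beside genes that moved in either direction. The windows below show it (capitals) for 6 genes that fell and for Eif1b and Eif4e, which rose, each read in the direction of the gene and lying before an annotated RefSeq start. Genes can have several starts: the windows of Eif4g1, Eif5a, Eif1b and Eif4e lie inside the gene as GENCODE spans it, and Eif4e and Eif5a have other RefSeq starts upstream of them.
Eef2 promoter (chr10:81176576-81176605, plus strand): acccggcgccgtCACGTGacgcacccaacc
Eif3f promoter (chr7:108934335-108934364, plus strand): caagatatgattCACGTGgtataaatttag
Eif3k promoter (chr7:28981915-28981944, minus strand): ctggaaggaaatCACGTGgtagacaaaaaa
Eif4g1 promoter (chr16:20672661-20672690, plus strand): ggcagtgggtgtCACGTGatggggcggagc
Eif4h promoter (chr5:134639488-134639517, minus strand): cggccgccgcacCACGTGggccgcagagcg
Eif5a promoter (chr11:69921443-69921472, minus strand): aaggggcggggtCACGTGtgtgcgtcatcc
Eif1b promoter (chr9:120492570-120492599, plus strand): cgtgcggacggtCACGTGgcggcggcgcgc
Eif4e promoter (chr3:138527192-138527221, plus strand): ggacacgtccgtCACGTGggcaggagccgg
Of the other motifs searched, the antioxidant element TGACNNNGC was in 12 of the 67 factor promoters (17.9%, against 12.4% of all), and the cyclic AMP element TGACGTCA in 1, that of Eef2 (1.49%, against 1.79%). The composite element TGATGCAAT, known to bind C/EBP and ATF4 dimers, was in none of the 67 factor promoters searched and in 0.192% of all promoters. Only this exact form of the element was searched. Of the genes that rose, Eif4ebp1 and Eif6 had no promoter among the 67 and were not searched for any motif. A match is a run of letters and not a measured site.

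Among the 4 eIF2 kinase genes, 3 rose and 1 fell, while of all tested genes 38.8% rose and 38.3% fell. Eif2ak2 (chromosome 17, 78852564 to 78882573) encodes PKR, the kinase activated by double-stranded RNA and known as an interferon-induced gene. It had 95.9, 79.7 and 98.7 CPM in control libraries against 26.8, 24.3 and 24.9 with piceatannol. All treated libraries lay far below all controls, a 3.62-fold fall (log2 fold change -1.85 ± 0.08 (SE), adjusted p = 5.89e-14), and this was the largest fall among the tested factors. Eif2ak3, which encodes PERK, the kinase of endoplasmic reticulum stress, had 63.6, 56.7 and 61.2 CPM in control libraries against 85.7, 92.4 and 86.3 with piceatannol. The groups did not overlap, and the gene rose 1.46-fold (log2 fold change 0.54 ± 0.06 (SE), adjusted p = 1.88e-07). Eif2ak4, for GCN2, which senses uncharged tRNA, had 62.6, 58.4 and 60.6 CPM in control libraries against 80.2, 78 and 73 with piceatannol and rose 1.27-fold (log2 fold change 0.35 ± 0.06 (SE), adjusted p = 4.45e-05). Eif2ak1, for HRI, the kinase regulated by haem, had 101, 102 and 102 CPM in control libraries against 134, 125 and 124 with piceatannol and rose 1.26-fold (log2 fold change 0.33 ± 0.06 (SE), adjusted p = 3.22e-05). All 3 rises were under 1.5-fold.

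Within each library the balance among the kinase genes shifted away from Eif2ak2. The FPKM ratio of Eif2ak2 to Eif2ak3 was 1.78, 1.66 and 1.9 in control libraries against 0.368, 0.31 and 0.34 with piceatannol. In control libraries Eif2ak2 was thus above Eif2ak3, and in treated libraries below it, a difference of -2.39 in the log2 ratio. By level per length, Eif2ak2 and Eif2ak1 lay side by side in control (17.9 ± 1.95 and 17.9 ± 0.12 FPKM), above Eif2ak3 (10 ± 0.551) and Eif2ak4 (8.12 ± 0.26). With piceatannol the order was Eif2ak1 (22.2 ± 0.915), Eif2ak3 (14.4 ± 0.663), Eif2ak4 (10.2 ± 0.497) and Eif2ak2 (4.87 ± 0.234 FPKM, SD, n = 3). Exons of Eif2ak1 share 8.6% of their length with Aimp2 on the opposite strand, and the sources used here do not give the strand setting of the counting. Log2 differences of ratios here and below are taken from counts. The log2 ratios of Eif2ak1 and Eif2ak4 to Eif2ak3 differed by -0.21 and -0.20, which is far less.

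Among genes that oppose or modulate the kinases, Ppp1r15a and Impact rose the most. Of 7 tested, 3 rose, 2 fell and 2 did not pass (median 0.09). Of all tested genes 38.8% rose and 38.3% fell. Ppp1r15a encodes GADD34, the inducible subunit that directs protein phosphatase 1 to eIF2. It had 140.2, 146 and 155 CPM in control libraries against 1228, 1120.1 and 1241 with piceatannol, a rise of 8.12-fold (adjusted p = 2.27e-18). Impact, whose product inhibits GCN2 activation, had 44.1, 39.1 and 42.5 CPM in control libraries against 332, 317 and 306 with piceatannol, a 7.58-fold rise (adjusted p = 1.3e-18). In both genes all treated libraries stood several-fold above all controls. Nck1, an adaptor that can bring the phosphatase to eIF2, also passed at a log2 fold change of 0.22, with overlapping groups. Ppp1r15b, the constitutive counterpart of GADD34, had a log2 fold change of 0.09 (adjusted p = 0.156). Ppp1ca, a catalytic subunit gene of the phosphatase, fell 2.28-fold from 513 ± 14.8 to 225 ± 4.97 CPM (SD, n = 3). Dnajc3, for the kinase inhibitor p58IPK, passed at -0.14, a call that was lost without control replicate 1 (adjusted p = 0.076), without control replicate 2 (adjusted p = 0.0539) and without piceatannol replicate 3 (adjusted p = 0.098).

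The alpha and beta subunit genes of eIF2 changed little. Eif2s1, for the alpha subunit that the kinases phosphorylate, had 62.8, 64.5 and 58.3 CPM in control libraries against 58.9, 51.4 and 54.3 with piceatannol. Control and treated values overlapped, and the fall of 1.13-fold was near the threshold (log2 fold change -0.17 ± 0.07 (SE), adjusted p = 0.0277). It no longer passed without control replicate 1 (adjusted p = 0.0628), without control replicate 2 (adjusted p = 0.0837), without piceatannol replicate 2 (adjusted p = 0.12) and without piceatannol replicate 3 (adjusted p = 0.0623). Eif2s2, for the beta subunit, had 55.9, 58.1 and 51.2 CPM in control libraries against 51.9, 50.8 and 43.6 with piceatannol and was as close to the threshold (log2 fold change -0.18 ± 0.07 (SE), adjusted p = 0.037). That call was lost without control replicate 1 (adjusted p = 0.0835), without control replicate 2 (adjusted p = 0.131) and without piceatannol replicate 3 (adjusted p = 0.219). For the gamma subunit mice carry the X-linked gene Eif2s3x and, in males only, the Y-linked gene Eif2s3y. Eif2s3y, at 16.9 ± 0.711 FPKM in control, stood above Eif2s3x at 1.83 ± 0.0436. Of the 50-base windows of Eif2s3x 36.2% occur also in transcripts of other genes, so its level is uncertain. Eif2s3x had 7.06, 7.06 and 6.79 CPM in control libraries against 3.51, 5.11 and 4.1 with piceatannol and fell (log2 fold change -0.72 ± 0.14 (SE), adjusted p = 0.000127). Eif2s3y did not pass (log2 fold change -0.11, adjusted p = 0.189), but passed without piceatannol replicate 1 (adjusted p = 0.0101).

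The subunits of eIF2B, the exchange factor that phosphorylated eIF2 inhibits, did not move together. Eif2b5, for the catalytic epsilon subunit, had 72.6, 77.8 and 73.5 CPM in control libraries against 55.9, 55.1 and 55.1 with piceatannol and fell 1.35-fold (log2 fold change -0.43 ± 0.06 (SE), adjusted p = 2.21e-06). Eif2b1 (log2 fold change -0.27) and Eif2b3 (-0.29), for the alpha and gamma subunits, also fell. Eif2b4, for the delta subunit, rose, with 30.3, 31.8 and 32 CPM in control libraries against 38.5, 37.5 and 41 with piceatannol (log2 fold change 0.32 ± 0.07 (SE), adjusted p = 0.000363). Its groups did not overlap, but 7.8% of its exonic length is shared with Snx17 on the opposite strand. Eif2b2, for the beta subunit, had 71, 75.1 and 75.3 CPM in control libraries against 76.4, 79.6 and 88.4 with piceatannol and did not pass (adjusted p = 0.0537). With the replicate number as a block it did (adjusted p = 0.0227), and so it did without piceatannol replicate 1 (adjusted p = 0.023). The difference between subunits was not itself tested. Per length, Eif2b2 was the highest of the complex in control at 39.2 ± 1.32 FPKM and Eif2b3 the lowest at 2.59 ± 0.0854, and both kept that place with piceatannol (42.6 ± 3.21 and 2.08 ± 0.174 FPKM, SD, n = 3).

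Both genes for factors that can deliver initiator tRNA without eIF2 fell. Eif2a, whose product is distinct from the alpha subunit of eIF2, had 55.2, 52.5 and 49.3 CPM in control libraries against 27.5, 28.7 and 24.8 with piceatannol, a 1.94-fold fall (log2 fold change -0.96 ± 0.07 (SE), adjusted p = 3.25e-10). Eif2d, also known as ligatin, had 50.1, 54.2 and 53 CPM in control libraries against 28.9, 29 and 31.1 with piceatannol, a 1.77-fold fall (log2 fold change -0.82 ± 0.07 (SE), adjusted p = 8.88e-10). No treated library reached a control value in either gene. Denr and Mcts1 encode a pair of proteins with the domains of Eif2d that act in recycling and reinitiation. Denr fell 1.91-fold from 94.5 ± 5.02 to 49.5 ± 3.38 CPM and Mcts1 1.8-fold from 26.1 ± 1.49 to 14.5 ± 1.46 CPM (SD, n = 3).

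Genes of start codon selection went in both directions. Eif1, whose product keeps the scanning ribosome open and strict, had 165, 190.2 and 176 CPM in control libraries against 258, 271 and 266 with piceatannol and rose 1.5-fold (log2 fold change 0.58 ± 0.06 (SE), adjusted p = 4.06e-08). Of its 50-base windows 31.6% occur in other transcripts. Its near relative Eif1b had 41.1, 40.4 and 41.5 CPM in control libraries against 77.5, 78.5 and 71.4 with piceatannol and rose 1.85-fold (log2 fold change 0.89 ± 0.06 (SE), adjusted p = 9.9e-11). In both genes the lowest treated library lay above the highest control. Eif1ax, an X-linked gene for eIF1A, had 65.3, 63 and 57.8 CPM in control libraries against 47.3, 42.9 and 37.4 with piceatannol and fell 1.46-fold (log2 fold change -0.54 ± 0.08 (SE), adjusted p = 4.48e-06). Eif1a, the other eIF1A gene, had 68.2, 69.6 and 68.5 CPM in control libraries against 65.4, 57.7 and 65.3 with piceatannol and did not pass (log2 fold change -0.13, adjusted p = 0.0791), although it passed with the replicate number as a block (adjusted p = 0.0465). Eif1ad had a log2 fold change of -0.10 (adjusted p = 0.194).

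Eif5, Eif5b and Eif6, which act at the last steps of initiation or on the free large subunit, all rose. Eif5 (chromosome 12, 111538016 to 111546752) encodes the protein that triggers GTP hydrolysis by eIF2 at the start codon and is known to loosen start codon choice when abundant. It had 172, 153 and 165 CPM in control libraries against 396, 342 and 332 with piceatannol. The lowest treated value was well above the highest control value, and the rise was 2.18-fold (log2 fold change 1.13 ± 0.07 (SE), adjusted p = 1.6e-11). Eif5b, for the GTPase that joins the ribosomal subunits, had 168, 160.1 and 158 CPM in control libraries against 306, 322 and 288 with piceatannol and rose 1.88-fold (log2 fold change 0.91 ± 0.06 (SE), adjusted p = 2.55e-11). Of its exonic length 16.8% overlaps Rev1 on the opposite strand, which itself rose 1.52-fold from 24 ± 2.25 to 36.5 ± 1.84 CPM (adjusted p = 8.38e-07). The part of Rev1 reads in the Eif5b count was not tested. Eif6, for the factor that keeps free large subunits apart from small ones, had 118, 139 and 124 CPM in control libraries against 167, 182 and 186 with piceatannol and rose 1.41-fold (log2 fold change 0.49 ± 0.07 (SE), adjusted p = 1.19e-06). In Eif5, Eif5b and Eif6 all treated values exceeded all control values.

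The multi-subunit scaffold eIF3 holds the small ribosomal subunit and the mRNA together. All 13 tested subunit genes fell, with log2 changes from -1.11 (Eif3i) to -0.18 (Eif3c) and a median of -0.50. Of all tested genes 38.3% fell. Eif3i had 174, 198 and 177 CPM in control libraries against 79.6, 83.8 and 91.8 with piceatannol, a 2.15-fold fall (log2 fold change -1.11 ± 0.07 (SE), adjusted p = 7.38e-12). Eif3l (-0.85), Eif3e (-0.79) and Eif3m (-0.71) followed, as log2 fold changes. At the other end Eif3c, of the core, had 359, 359 and 351 CPM in control libraries against 311, 307 and 325 with piceatannol (log2 fold change -0.18 ± 0.06 (SE), adjusted p = 0.00716), and the largest subunit gene Eif3a had 465, 457 and 440.0 CPM in control libraries against 397, 379.8 and 400.1 with piceatannol (log2 fold change -0.21 ± 0.06 (SE), adjusted p = 0.00286). Here too no treated library reached the lowest control, but the distance was small. Eif3b (-0.44), Eif3g (-0.25), Eif3f (-0.55), Eif3h (-0.58) and Eif3k (-0.50) lay between. Eif3d fell by 0.20 (adjusted p = 0.0087), a call lost without control replicate 2 (adjusted p = 0.0511). Eif3j1, for a loosely bound subunit, passed narrowly at -0.31 (adjusted p = 0.0471) and lost the call without control replicate 1 (adjusted p = 0.212), without control replicate 3 (adjusted p = 0.0662), without piceatannol replicate 1 (adjusted p = 0.0564) and without piceatannol replicate 3 (adjusted p = 0.197). Of its 50-base windows 39.8% are shared with other transcripts, almost all with the copy Eif3j2, which was not tested, at 7, 2 and 2 counts in control against 5, 1 and 4 with piceatannol. Its exons also share 19.0% of their length with Spg11 on the opposite strand, which fell 1.23-fold from 57.2 ± 3.81 to 46.6 ± 1.81 CPM (SD, n = 3).

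Levels per length differed between the eIF3 subunit genes. In control, Eif3h was the highest at 163 ± 1.49 FPKM, Eif3m the lowest but for Eif3j1 at 21.2 ± 1.21, and the median was 78.6. With piceatannol Eif3h stood at 108 ± 1.72, Eif3m at 12.7 ± 0.104 and the median at 54.9 FPKM (SD, n = 3). Of the 50-base windows of Eif3m 37.3% and of Eif3h 26.2% occur in other transcripts, so their levels carry that limit. The order also depends on the lengths used for FPKM. Eif3h and Eif3k were alike in mean control CPM (204.7 and 204.7) but stood at 163 and 75.9 FPKM. Merged exons of Eif3k came to 2698 bases, while its longest coding transcript held 860 windows. For Eif3h these values were 1612 and 1246. Exons of Eif3d share 43.3% of their length with the antisense gene Gm17638, which was itself at 0.0587 CPM in control.

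**Figure D3:**
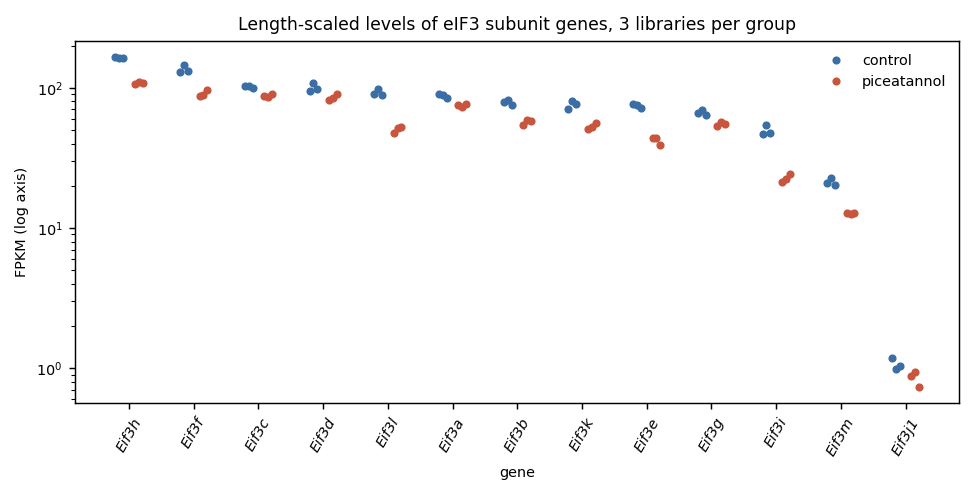
FPKM on a log axis (vertical) in each control (blue) and piceatannol (red) library for the 13 tested eIF3 subunit genes (horizontal), ordered by control level. The treated points lie below the control points for each gene, with Eif3h at the left near 163 FPKM in control and Eif3j1 at the right near 1.07.

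The cap-binding genes separated by paralog. Eif4e (chromosome 3, 138526179 to 138559696), for the main cap-binding protein, had 27.3, 26.9 and 26.6 CPM in control libraries against 57.6, 47.1 and 48 with piceatannol and rose 1.89-fold (log2 fold change 0.92 ± 0.08 (SE), adjusted p = 1.36e-09). Eif4e3, for another cap-binding protein, had 32.5, 33.2 and 33.4 CPM in control libraries against 16.5, 15.3 and 13.5 with piceatannol and fell 2.19-fold (log2 fold change -1.13 ± 0.08 (SE), adjusted p = 1.32e-10). Neither gene's groups overlapped. Exons of Eif4e3 share 14.8% of their length with Gm20696 on the same strand, a gene at 0.0302 CPM in control and 0 with piceatannol. Eif4e2, for 4EHP, a cap-binding protein that works with GIGYF proteins to repress translation, had 106, 112 and 107 CPM in control libraries against 100.3, 99.7 and 104 with piceatannol and did not pass (log2 fold change -0.10, adjusted p = 0.134). Its partner gene Gigyf1 rose 1.96-fold from 65.7 ± 5.02 to 129 ± 8.91 CPM (SD, n = 3). Eif4e1b, known from oocytes, had 0 counts in every library, which allows up to 0.0908 CPM in the shallowest (3 counts, counting error only).

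In control libraries Eif4e2 and Eif4e3 both exceeded Eif4e per length. The FPKM ratio of Eif4e3 to Eif4e was 2.84, 2.95 and 3 in control libraries against 0.683, 0.777 and 0.673 with piceatannol. It went from above 1 in every control to below 1 in every treated library, a log2 difference of -2.05. The ratio of Eif4e2 to Eif4e was 3.23 ± 0.116 in control libraries against 1.61 ± 0.188 with piceatannol (SD, n = 3), a log2 difference of -1.01. Eif4e2 thus stayed above Eif4e in all libraries, by less with piceatannol.

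The 4E-BP genes, whose products hold eIF4E until the kinase mTORC1 phosphorylates them, exchanged places. Eif4ebp1 (chromosome 8, 27260329 to 27276674), known as a target of ATF4, had 81.6, 86.4 and 82.5 CPM in control libraries against 194, 211 and 201 with piceatannol. It rose 2.42-fold (log2 fold change 1.28 ± 0.06 (SE), adjusted p = 8.15e-14), the largest rise among the tested genes with an Eif symbol. Eif4ebp2 (chromosome 10, 61428491 to 61452661) had 254, 256 and 250.0 CPM in control libraries against 108, 123 and 122 with piceatannol and fell 2.15-fold (log2 fold change -1.11 ± 0.06 (SE), adjusted p = 1.81e-12). In both genes the 3 libraries of a group lay close together and far from the other group. The FPKM ratio of Eif4ebp2 to Eif4ebp1 was 1.18, 1.13 and 1.15 in control libraries against 0.21, 0.221 and 0.231 with piceatannol, a log2 difference of -2.39.

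The remaining 4E-BP gene was barely expressed. Eif4ebp3 had 16, 12 and 12 counts in control against 11, 5 and 13 with piceatannol, with no call (log2 fold change -0.15 ± 0.45, SE; adjusted p = 0.761). A difference of this size was not detectable at this depth. Of its exonic length 67.3% belongs also to another annotated gene on the same strand, so its counts are uncertain. Eif4enif1, for the transporter 4E-T that carries eIF4E into the nucleus and to P-bodies, had 82.1, 75.7 and 84.4 CPM in control libraries against 45.7, 47.8 and 50 with piceatannol and fell 1.69-fold (log2 fold change -0.76 ± 0.07 (SE), adjusted p = 1.83e-09). Against the rise of Eif4e, Eif4ebp1 rose more: the FPKM ratio of Eif4ebp1 to Eif4e was 8.49 ± 0.32 in control libraries against 11 ± 1.57 with piceatannol (SD, n = 3), a log2 difference of 0.36.

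**Figure D4:**
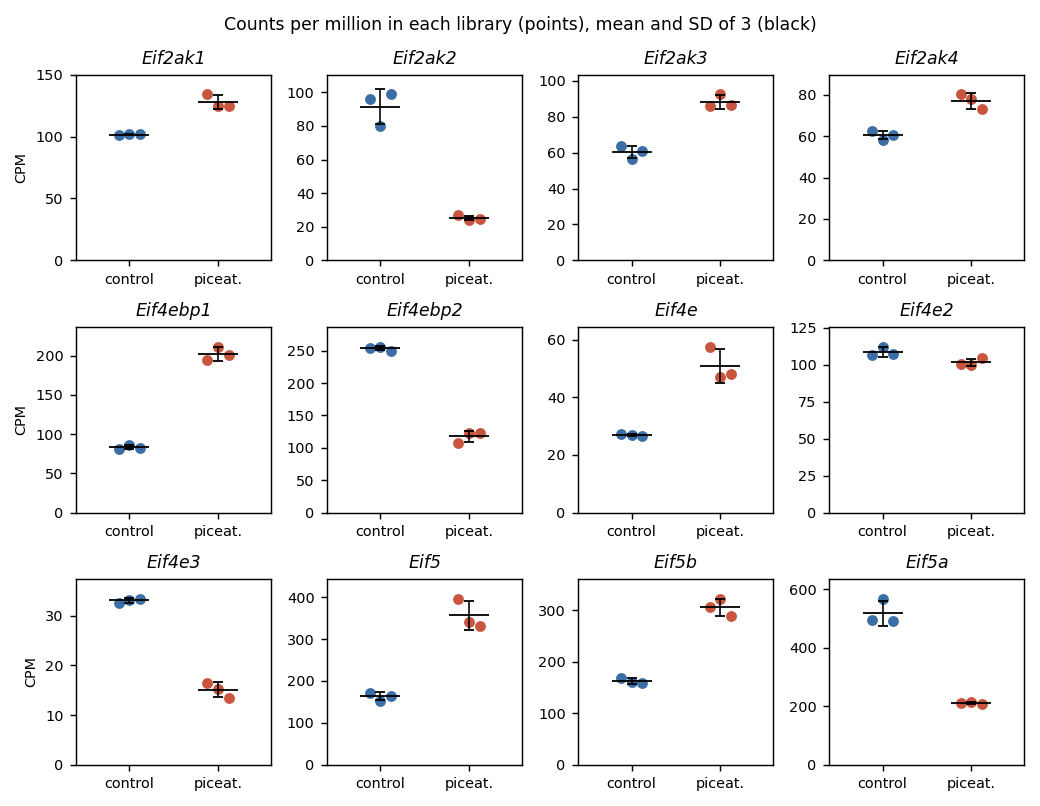
CPM (vertical axes, each from 0) in each control (blue) and piceatannol (red) library for the 4 eIF2 kinase genes and 8 other Eif genes, with the mean and SD of 3 in black. Eif2ak2, Eif4ebp2, Eif4e3 and Eif5a are lower in all treated libraries, while Eif4ebp1, Eif4e, Eif5 and Eif5b are higher.

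All 3 genes of the eIF4G scaffold fell. Eif4g3 had 223, 207 and 228 CPM in control libraries against 139, 138 and 151 with piceatannol and fell 1.53-fold (log2 fold change -0.62 ± 0.06 (SE), adjusted p = 1.26e-08). Eif4g1, the main scaffold gene, had 589, 555 and 559.9 CPM in control libraries against 386, 410.2 and 397 with piceatannol (-0.51). Eif4g2, for DAP5, which lacks the eIF4E-binding part and acts in cap-independent initiation, had 734, 725 and 711 CPM in control libraries against 618, 610.1 and 551 with piceatannol and fell the least (log2 fold change -0.29 ± 0.06 (SE), adjusted p = 0.000403). The FPKM ratio of Eif4g2 to Eif4g1 was 0.885, 0.929 and 0.902 in control libraries against 1.14, 1.06 and 0.988 with piceatannol, higher in every treated library. That of Eif4g3 to Eif4g1 was 0.247, 0.244 and 0.266 in control libraries against 0.235, 0.22 and 0.249 with piceatannol. These values overlapped between the groups, although the treated library had the lower ratio in each of the 3 same-numbered pairs.

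The helicase genes Eif4a1 and Eif4a2 did not pass. Eif4a1 had 114, 118 and 113 CPM in control libraries against 109, 105 and 106 with piceatannol (log2 fold change -0.10, adjusted p = 0.102) and Eif4a2 had 139, 129 and 137 CPM in control libraries against 145, 147 and 133 with piceatannol (0.07, adjusted p = 0.295). Of the 50-base windows of Eif4a1 65.3% occur in other transcripts, mostly in the pseudogene Eif4a-ps4, so both its level and its change are uncertain. The pseudogene itself had 2.73, 3.46 and 2.59 CPM in control libraries against 4.16, 5.3 and 3.81 with piceatannol. Eif4a3, a helicase of the exon junction complex and not of cap binding, had 80.3, 85.8 and 77.1 CPM in control libraries against 54.8, 55.7 and 56.5 with piceatannol and fell 1.46-fold (log2 fold change -0.54 ± 0.06 (SE), adjusted p = 1.35e-07). The helicase cofactor genes fell as well: Eif4b had 491, 481 and 461 CPM in control libraries against 301, 312 and 311 with piceatannol (log2 fold change -0.63 ± 0.06 (SE), adjusted p = 4.52e-09), and Eif4h had 316, 343 and 317 CPM in control libraries against 260.4, 259 and 272 with piceatannol (log2 fold change -0.30 ± 0.06 (SE), adjusted p = 0.000109). With no overlap in either gene, the fall of Eif4b was the larger.

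Eif5a and Eif5a2 encode the proteins known to carry hypusine, a modified lysine, which act in elongation and termination. Eif5a had 493, 566 and 492 CPM in control libraries against 211, 213 and 208 with piceatannol. The treated libraries lay close together and lay below all controls, a 2.45-fold fall (log2 fold change -1.29 ± 0.07 (SE), adjusted p = 3.08e-13) of a gene that in control libraries ranked among the 5 most abundant factors per length (from 218 ± 18.6 to 87.4 ± 1.44 FPKM, SD, n = 3). Eif5a2 had 11.4, 9.75 and 8.53 CPM in control libraries against 5.7, 7.26 and 4.83 with piceatannol and fell 1.68-fold (log2 fold change -0.75 ± 0.15 (SE), adjusted p = 0.000147). Dhps, for the enzyme of the initial step of hypusine synthesis, rose 1.28-fold from 26.8 ± 1.37 to 34.3 ± 1.34 CPM, and Dohh, for the next step, did not pass (log2 fold change -0.11, adjusted p = 0.176).

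Elongation factor genes fell, with a single rise. Eef1a1, for the main carrier of aminoacyl-tRNA to the ribosome, had 2206, 2485 and 2245 CPM in control libraries against 1384, 1446 and 1497 with piceatannol, a 1.6-fold fall (log2 fold change -0.68 ± 0.07 (SE), adjusted p = 2.81e-08). Eef2, for the translocation factor, had 2998, 3152 and 2931 CPM in control libraries against 1951, 2164 and 2166 with piceatannol, a 1.45-fold fall (log2 fold change -0.53 ± 0.07 (SE), adjusted p = 1.11e-06). These were the most abundant factors per length in control, at 928 ± 63.4 and 911 ± 36.9 FPKM (SD, n = 3). Of the windows of Eef1a1 59.2% recur in other transcripts, belonging to 20 other genes, so its level is uncertain. All Eef genes together made up 0.62% ± 0.0276 of each control library and 0.41% ± 0.0203 of each treated library, and all Eif genes 0.826% ± 0.0159 and 0.68% ± 0.00451.

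Eef1a2 (chromosome 2, 181147653 to 181157014), the paralog known from neurons and muscle, rose from a low level. Its counts were 91, 101 and 82 in control against 858, 451 and 794 with piceatannol. These correspond to 1.72, 2.3 and 1.39 CPM in control libraries against 20.4, 13.6 and 16.3 with piceatannol, a 9.44-fold rise (log2 fold change 3.24 ± 0.18 (SE), adjusted p = 4.41e-10), the largest change of any tested factor. Per length it went from 0.867 ± 0.227 to 7.92 ± 1.58 FPKM, and so remained far below Eef1a1. The FPKM ratio of Eef1a2 to Eef1a1 was 0.000939, 0.00111 and 0.000734 in control libraries against 0.0176, 0.0113 and 0.013 with piceatannol. Of the coding genes nearby, Ppdpf rose 1.41-fold and Ptk6 fell 2.42-fold. Neither of these 2 genes shared a rise of this size.

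The eEF1B complex recharges eEF1A with GTP. Its genes fell unequally. Eef1g, the gamma subunit gene, had 88.7, 93.4 and 79.7 CPM in control libraries against 41.7, 39.5 and 43.5 with piceatannol and fell 2.1-fold (log2 fold change -1.07 ± 0.07 (SE), adjusted p = 2.18e-11), although 64.3% of its windows recur in other transcripts. Eef1b2 had 521, 538 and 519 CPM in control libraries against 400.2, 409 and 428 with piceatannol (log2 fold change -0.35 ± 0.06 (SE), adjusted p = 1.99e-05), and Eef1d had 95.7, 104 and 95.6 CPM in control libraries against 80.4, 80.1 and 86.8 with piceatannol and fell the least (log2 fold change -0.25 ± 0.06 (SE), adjusted p = 0.001). Eef1e1, whose product belongs to the multi-synthetase complex, had 18, 20.1 and 18.3 CPM in control libraries against 11, 10.3 and 10.6 with piceatannol and fell 1.76-fold. In all 4 genes the groups were apart.

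Eef2k, for the calcium-dependent kinase that inactivates eEF2, had 15.3, 15.3 and 14.8 CPM in control libraries against 11.8, 12.8 and 11.6 with piceatannol and fell 1.26-fold (log2 fold change -0.33 ± 0.09 (SE), adjusted p = 0.00288), somewhat less than its substrate's gene. The log2 ratio of Eef2k to Eef2 differed by 0.20 between the groups. Among the methyltransferase genes, which modify lysines of eEF1A and eEF2, Eef1akmt1 had 21.5, 24.8 and 19.8 CPM in control libraries against 10.9, 8.78 and 11.2 with piceatannol and fell 2.12-fold (log2 fold change -1.09 ± 0.11 (SE), adjusted p = 1.68e-08). Eef1akmt2 (-0.46) and Eef2kmt (-0.27) fell less, and the call of Eef2kmt was lost without control replicate 2 (adjusted p = 0.0592). Exons of Eef2kmt overlap Alg1 on the opposite strand over 17.6% of their length. Eef1akmt3, at 0.5 ± 0.151 CPM in control, did not pass (adjusted p = 0.168).

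Several of these genes are known for mRNAs that begin with a terminal oligopyrimidine (TOP) tract, through which mTORC1 and LARP1 control their translation and stability. All 9 listed TOP genes (Eef1a1, Eef1b2, Eef1d, Eef1g, Eef2, Eif3e, Eif3f, Eif3h and Eif4b) fell, as did 67.7% of all tested factors. The median log2 change of the listed genes was -0.58, against -0.31 over all tested factors. The list was chosen with earlier results known and may not hold every TOP gene among the factors. Larp1 itself fell 1.38-fold from 218 ± 3.93 to 157 ± 4.64 CPM (SD, n = 3). The difference between TOP genes and the other factors was not tested.

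Of 9 listed genes, for kinases and mTORC1 components together with Larp1 and Rps6, 1 rose, 4 fell and 4 did not pass (median -0.0029). Over all tested genes the shares were 38.8% up and 38.3% down. The MNK kinases, which phosphorylate eIF4E, moved apart: Mknk2 had 288, 315 and 307 CPM in control libraries against 1046, 961 and 1098 with piceatannol and rose 3.41-fold (adjusted p = 4.62e-15), while Mknk1 had 130.2, 137 and 151 CPM in control libraries against 81.8, 83.3 and 90.3 with piceatannol and fell 1.64-fold (adjusted p = 5.26e-09). Mtor (log2 fold change 0.065, adjusted p = 0.338) and Mlst8 (0.035, adjusted p = 0.69) did not pass. Rptor, also of mTORC1, fell without overlap of the groups (log2 fold change -0.37, adjusted p = 3.48e-05). Rps6 was counted at only 1.83 ± 0.105 CPM in control, and passed as a fall with overlapping groups (adjusted p = 0.0302). Ribosomal protein genes have many processed copies, so this level is uncertain.

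Among 14 cap- and poly(A)-binding partners, 6 rose, 5 fell and 3 did not pass (median 0.0076). Beside this list and the next, the shares over all tested genes were 38.8% up and 38.3% down. Pabpc1, for the main cytosolic poly(A)-binding protein, had 703, 736 and 662 CPM in control libraries against 286, 311 and 295 with piceatannol, a 2.35-fold fall (adjusted p = 4.65e-13). Ncbp2, for a subunit of the nuclear cap-binding complex, had 44.6, 47.8 and 47.5 CPM in control libraries against 11.9, 12.2 and 11.8 with piceatannol, a 3.91-fold fall (adjusted p = 3.79e-15). The rises included Gigyf1, given above, and Angel1, which is related to deadenylases and binds eIF4E (1.95-fold from 6.27 ± 0.332 to 12.2 ± 1.29 CPM). Of 10 termination, recycling and reinitiation genes, 3 rose, 5 fell and 2 did not pass (median -0.27). Pelo and Hbs1l, which encode the partners that rescue stalled ribosomes, rose 1.94-fold and 1.38-fold, while Denr and Mcts1 fell.

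Of 12 genes for hypusine, diphthamide and selenocysteine steps, 1 rose, 5 fell and 6 did not pass (median -0.20). Dph6 and Dnajc24, of diphthamide synthesis on eEF2, fell 2.21-fold and 1.82-fold. Translation factors of mitochondria were listed as well. Of 10 tested, 3 rose, 3 fell and 4 did not pass (median -0.014). For both lists the shares over all tested genes were 38.8% up and 38.3% down. Mtif3 (1.62-fold) and Gfm2 (1.48-fold), of initiation and recycling, rose, and Gfm1 (1.59-fold) and Guf1 (1.41-fold), of elongation, fell. The difference from the cytosolic factors was not tested.

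Ratios within a library do not depend on how libraries are scaled. Of 15 pairs listed, 14 had both genes tested, Eif3j2 being the exception. The groups did not overlap for 13 of 14 pairs. Among single genes, 79% of all tested had groups that did not overlap. The pairs were chosen with earlier results known, and the share over other pairs was not taken. With 3 libraries against 3 the exact permutation test (two-sided) cannot go below p = 0.1, and these 13 pairs reached it (Benjamini-Hochberg adjusted p = 0.108), so none could pass 0.05. The remaining pair, Eif4g3 to Eif4g1, had an exact permutation p = 0.3, in a test that does not use the replicate numbers. By size, the pairs fell into 5 with log2 differences of at least 1 in either direction and 9 below. The former were Eef1a2 to Eef1a1 (3.91), Eif2ak2 to Eif2ak3 (-2.39), Eif4ebp2 to Eif4ebp1 (-2.39), Eif4e3 to Eif4e (-2.05) and Eif4e2 to Eif4e (-1.01). Smaller shifts were those of Eif5a2 to Eif5a (0.54), Eif1b to Eif1 (0.30) and Eif4a2 to Eif4a1 (0.17).

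**Figure D5:**
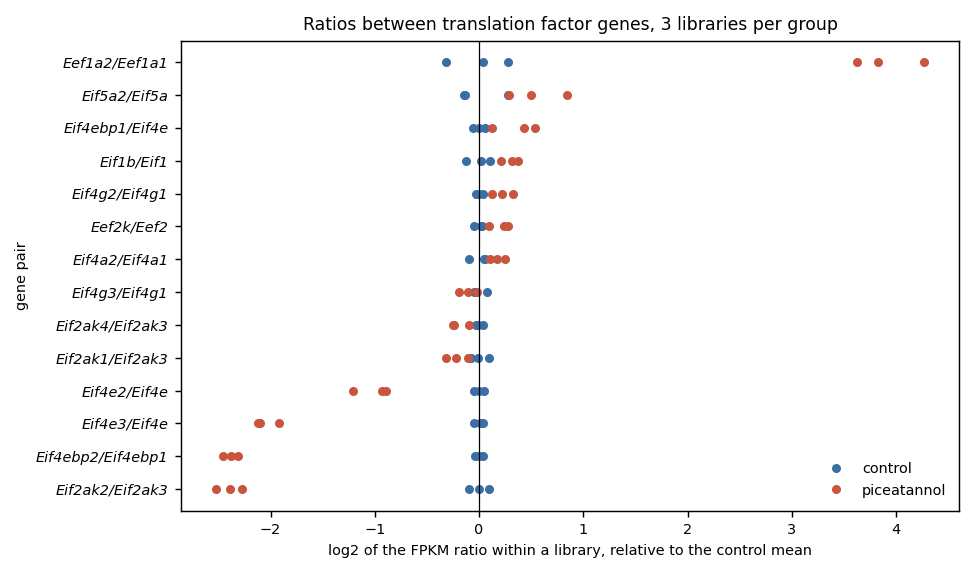
Log2 of the FPKM ratio within each library (horizontal axis), relative to the control mean of that pair, for 14 gene pairs (vertical axis), with 3 control libraries in blue and 3 piceatannol libraries in red. Eef1a2 to Eef1a1 lies farthest to the right and Eif2ak2 to Eif2ak3 and Eif4ebp2 to Eif4ebp1 farthest to the left, while the control points stay near 0.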

How the data were processed

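The authors deposited raw counts per gene symbol and FPKM values for the same 6 libraries. Bcl2fastq, STAR, featureCounts and DESeq2, with the builds mm10 and GRCm38, are named in the submitters' processing notes. The sources used here do not give their versions, the annotation, the strand setting, the read length or the handling of shared reads. The deposited FPKM values are scaled between libraries by size factors: over 5568 genes counts per FPKM came to 1.144 in control replicate 1 relative to the other libraries, beside a size factor of 1.144 and a relative total of 1.134.

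Counts were filtered with edgeR 4.0.16 (filterByExpr, minimum count 10), scaled with TMM factors (0.985 to 1.016) and tested across all genes with edgeR's quasi-likelihood test, robust, two-sided, with Benjamini-Hochberg adjustment and a threshold of 0.05. The SE is |log2 fold change| over the square root of the F statistic. Alternatives used DESeq2 1.42.0 and limma 3.58.1. The genes, roles, companion lists and pairs were chosen with earlier results of these data known. Any of the genes could be named. Full values are given for the eIF2 kinases, 4E-BPs, Eif2s1, Eef2k, most extremes of each role and most of the 5 most abundant. Up to 2 called genes in each direction of each companion list are named, some with a fold change only. Nck1, Ppp1r15b, Dohh, Mtor, Mlst8, Rptor and Rps6 were named after their values were seen.

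Replicate libraries varied beyond counting error (chi-square per degree of freedom 10.1 to 18.6). Same-numbered libraries of the groups deviated together, with correlations across genes of 0.115, 0.121 and 0.134, against -0.12 to 0.00575 for other combinations. With each over 0.1 a pairing by number was tried as the replicate block, from the data alone. These correlations are weak, and the main fit and the permutation test used no pairing. The labels do not say what the numbers mark. Positions and transcripts are those of GENCODE M21 (GRCm38), matched by symbol for all 68 genes. The annotation behind the deposited counts may differ, so the shares of exonic length given above hold for GENCODE M21 only. A window of 50 bases of a gene's longest coding transcript counted as shared if it occurred in any transcript of another gene, on the same strand.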

Additional observations from a re-analysis of the deposited data

How the results depend on the processing

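Over RLE, upper-quartile and total-count scaling, DESeq2, limma-voom, the filter left out or made stricter (3 libraries at a CPM of 5 or more), limma on log2(FPKM + 1) and log2(FPKM + 0.1), the replicate block and each library left out, 54 of 65 tested genes kept their direction and their side of the threshold in all 16 fits. The stricter filter left out Eef1akmt3 and Eif4ebp3. The counts of factors that fell and rose were 41 and 13 with upper-quartile factors, 46 and 12 with library totals, and 45 and 13 with the replicate block, which added Eif1a and Eif2b2 and changed no other call of a named gene. At least 2-fold changes were found for 7 falls, 3 rises and 5234 of all genes. Without 1 library the falls ranged from 40 to 44 and the rises from 12 to 13, and the median from -0.35 to -0.32. The median was -0.26 with upper-quartile factors, -0.34 with library totals, -0.25 with the stricter filter and -0.28 on log2(FPKM + 1). Upper-quartile scaling moved the median of all genes from 0.011 to 0.064. Calls that another scaling, filter, tool or unit ended were those of Dnajc3, Eif2s1, Eif2s2, Eif3d and Eif3j1, and the cause was not tested. Eif1a and Eif4a1 passed as falls with library totals (adjusted p = 0.0331 and 0.0402), on log2(FPKM + 1) (0.0408 and 0.039) and on log2(FPKM + 0.1) (0.0401 and 0.0416). Eif2b2 passed as a rise with upper-quartile factors (adjusted p = 0.0107) and the stricter filter (0.00954). Eif4ebp3, at 5 to 16 counts per library, had a log2 fold change of 0.030 without piceatannol replicate 2, where its sign turned. The 14 pair ratios kept their direction without each library and with FPKM.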
